A study of Mus musculus with 6 samples.

Results

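The ABC transporters and the Slco and Slc22a solute carriers of mouse liver were described by the chromatin accessibility of the peaks nearest to their genes. Members were the peaks of the deposited table whose assigned gene, the one with the nearest start, is named Abca to Abcg with a number, Slco or Slc22a; 1 gene of that pattern was set aside by the rule. This gave 391 of 74076 peaks, assigned to 82 of 19057 genes. The ABC families held 221 peaks of 44 genes, Slc22a 96 peaks of 24 genes and Slco 74 peaks of 14 genes. The measurement was ATAC-seq, in which a transposase inserts adapters into open DNA of isolated nuclei. There were 3 libraries of fasted and 3 of refed liver, all from male C57BL/6J mice, an inbred strain, at 8 weeks of age. Food was withdrawn from the fasted mice at 10 pm, 12 h before tissue was taken at 10 am. The refed mice lost food at 10 am and 12 h later were given a diet of 69% sucrose and 10% fat, on which they stayed for 12 h until the same hour of killing. Eating, the sucrose diet and the clock hours of the fast therefore cannot be told apart. Whether every library stands for a separate animal is not stated in the labels, and p-values here measure the spread among the libraries, which may be technical.

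ABC proteins use ATP to move lipids, sterols, drugs and conjugates across membranes, and in hepatocytes those of the canalicular membrane secrete the solutes of bile. Slco genes encode organic anion transporting polypeptides, which take up bile acids, hormones and drugs from blood without sodium. Slc22a genes encode carriers of organic cations, carnitine and organic anions.

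At 4 of the 391 transporter peaks (1.02%) accessibility differed between refed and fasted liver, a share close to the 1.23% of all peaks. A peak in the first intron of Abca1, the cholesterol and phospholipid exporter that forms high-density lipoprotein, rose 3.39-fold in refed liver. A peak assigned to Slc22a7, which encodes the organic anion carrier OAT2, rose 2.0-fold. A peak upstream of Slc22a5, which encodes the carnitine carrier OCTN2, was 2.36-fold higher in fasted liver, and a peak in the first intron of Abcc3, the basolateral exporter of conjugates and bile acids, was 2.25-fold higher in fasted liver. Of the 59 peaks within 1 kb of a transporter gene start 0 passed the same test, where 0.487% of all such peaks did, so a count of 0 is no result about these starts.

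The starts of these genes differ in sequence, and 4 are printed here because they span the range of accessibility at the starts: Abca1 and Slc22a5 also hold a changed peak elsewhere, and Slco1a4 and Slco1b2 are uptake genes of the hepatocyte with weak start peaks. Each line gives the 250 bases before the start on the gene's own strand, from RefSeq on GRCm38.p6, and capitals mark each CG dinucleotide. The peaks are placed on the mm9 build, so these windows were matched by gene symbol and not by position.
Abca1, chr4:53159896-53160145, minus strand: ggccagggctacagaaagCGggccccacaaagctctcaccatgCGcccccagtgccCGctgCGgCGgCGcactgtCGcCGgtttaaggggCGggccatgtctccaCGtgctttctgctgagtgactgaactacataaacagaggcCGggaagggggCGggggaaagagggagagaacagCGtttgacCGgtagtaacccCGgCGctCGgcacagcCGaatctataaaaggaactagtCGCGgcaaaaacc
Slc22a5, chr11:53891704-53891953, minus strand: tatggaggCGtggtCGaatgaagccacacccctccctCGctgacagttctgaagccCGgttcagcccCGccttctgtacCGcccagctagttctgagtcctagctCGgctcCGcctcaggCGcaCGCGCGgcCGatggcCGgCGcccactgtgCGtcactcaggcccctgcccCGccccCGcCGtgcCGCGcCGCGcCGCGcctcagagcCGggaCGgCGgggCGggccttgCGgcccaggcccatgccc
Slco1a4, chr6:141856221-141856470, minus strand: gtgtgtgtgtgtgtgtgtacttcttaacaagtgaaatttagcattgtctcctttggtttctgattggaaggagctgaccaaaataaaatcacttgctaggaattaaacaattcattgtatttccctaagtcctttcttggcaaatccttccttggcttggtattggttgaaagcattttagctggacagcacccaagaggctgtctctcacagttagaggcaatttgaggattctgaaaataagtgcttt
Slco1b2, chr6:141629268-141629517, plus strand: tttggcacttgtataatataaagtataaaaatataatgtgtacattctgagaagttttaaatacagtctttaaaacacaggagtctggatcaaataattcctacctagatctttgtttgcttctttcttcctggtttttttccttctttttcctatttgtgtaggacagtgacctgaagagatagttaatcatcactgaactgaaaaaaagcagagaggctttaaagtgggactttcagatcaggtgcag
The Abca1 window held 20 CG dinucleotides and the Slc22a5 window 30, while the Slco1a4 and Slco1b2 windows held 0. The oxysterol receptors LXR bind, with RXR, a direct repeat with a spacing of 4 bases, so NGGTNANNNNNGGTNA was searched on both strands, and no other motif was searched. Only the first listed window of each transporter gene was used, while the set of all windows holds every listed start. The motif matched 1 of 64 transporter windows, 1.56%, and 0.621% of all 32851 windows. The match lay at Abca1, 67 to 52 bases before the start on the opposite strand, with the sequence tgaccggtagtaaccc as read on the gene's strand. This is a match of letters and not evidence of a bound factor.

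Accessibility is given in RPKM, the reads in a peak scaled to its length in kilobases and to the library's total of reads in the listed peaks. The 6 libraries held between 3205634 and 4850613 reads in peaks, and the median peak had 19 to 33 reads. Transporter peaks were much like the rest in size and depth, with a median width of 459 bp against 435 bp, a median of 16.4 against 15.7 RPKM and a median of 29.3 against 26 reads per library. Refed was compared with fasted by limma on log2 RPKM over all 74076 peaks, with Benjamini-Hochberg adjustment and a threshold of 0.05. In all, 910 peaks passed, which is 1.23%, with 594 higher in refed liver (0.802%) and 316 lower (0.427%). Of the transporter peaks 2 were higher and 2 lower, which is 1.02% and near that background. At an unadjusted p under 0.05 there were 31 higher and 28 lower, together 59 or 15.1%, against 14.5% of all peaks; by direction the shares were 7.93% higher and 7.16% lower, against 8.91% and 5.64% of all peaks. The refed libraries were all above or all below the fasted ones at 88 transporter peaks, 22.5%, with 42 above and 46 below, against 19.0% of all peaks (10.5% above and 8.57% below). Their median log2 change was -0.01, against 0.00 for all peaks, and single peaks ran from -1.50 to 2.21.

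Tissue makeup was read from marker genes. Of 10 hepatocyte markers 9 had peaks, with Tf the exception, and their summed accessibility was 1862 to 2116 RPKM in fasted and 1892 to 1946 RPKM in refed libraries. Their 85 peaks included 1 that was higher in refed liver, at Apoa1, and 5 that were lower, at Alb and Apoa2. Together these were 7.06%, against 1.23% of all peaks, and the 5 are neighbours at 2 genes. All 10 endothelial markers had peaks, with sums of 887 to 916 RPKM in fasted and 939 to 1006 RPKM in refed libraries. By limma 2 peaks, at Cdh5 and Pecam1, were higher in refed liver, 3.17% against 1.23% of all peaks. The 63 endothelial peaks did not move 1 way: 31 had a log2 change above 0 and 32 below, with a median of -0.0003. All refed values were above the fasted ones at 11 of them and below at 4. Together these were 23.8%, against 19.0% of all peaks (10.5% above and 8.57% below). Stellate markers, 8 of 10 with peaks (not Des and Rgs5), summed to 310 to 327 RPKM in fasted and 334 to 347 RPKM in refed libraries. Lymphocyte markers, with peaks for 3 of 12 (Cd3d, Ptprc and Lck), summed to 126 to 135 RPKM in fasted and 103 to 113 RPKM in refed libraries. Kupffer cell markers, with peaks for 4 of 10 listed symbols and none for Clec4f, Timd4 or Vsig4, had overlapping sums of 90.2 to 112 RPKM and 98.4 to 106 RPKM. The symbols Adgre1 and Emr1 in that list name the same gene. Cholangiocyte markers, with peaks for 5 of 7 and none for Krt19 or Krt7, overlapped as well at 402 to 482 RPKM and 442 to 490 RPKM. The endothelial, stellate and lymphocyte sums thus moved with the groups, and their part in the transporter results was not tested.

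Abca1 had the most peaks of any transporter gene, 18, and they did not move one way. The first-intron peak at chr4:53166560-53166945, 6015 bp past the start in intron 1 of 49, had 7.48, 12.1 and 10.8 RPKM in the fasted libraries 1, 3 and 4 and 41.6, 30.4 and 31.0 RPKM in the refed libraries 5, 7 and 8. Every refed library was higher than every fasted one, and the reads behind these values were 14, 15 and 17 against 67, 38 and 56. The means were 10.1 ± 2.39 and 34.3 ± 6.28 RPKM (SD, n = 3), a log2 change of 1.78 with a standard error of 0.25 (limma, adjusted p = 0.0063). In the authors' deposited table, made with edgeR from the same libraries, the log2 change is also 1.78. The change stayed past the threshold when any 1 library was left out. With quantile normalization (adjusted p = 0.0547) or without limma's intensity trend (0.0728) it missed the threshold, as did the other 3 called peaks. In bulk tissue a larger number of cells of a type and more open chromatin per cell cannot be told apart.

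The start peak of Abca1, which covers the 5′ untranslated first exon, had 31.3, 31.7 and 31.8 RPKM in fasted and 37.2, 37.2 and 32.4 RPKM in refed libraries. All refed values were above the fasted ones, by little: the log2 change was 0.17 with a standard error of 0.13 and an adjusted p of 0.610. In the neighbourhood of the changed peak, the next one in intron 1, 6649 bp from the start, had 11.0, 9.98 and 8.48 RPKM fasted and 19.2, 17.3 and 17.1 RPKM refed, without overlap (log2 change 0.87, adjusted p = 0.150). A peak 15720 bp from the start, still in intron 1, had 29.8, 29.8 and 38.9 RPKM fasted and 46.1, 42.0 and 47.0 RPKM refed (0.46, adjusted p = 0.116). Farther into the gene, peaks with lower values in refed liver were found. The intron 5 peak 44201 bp from the start had 37.2, 33.3 and 24.8 RPKM fasted and 16.4, 19.2 and 22.6 RPKM refed (log2 change -0.70, adjusted p = 0.104), and the intron 2 peak at 24818 bp had 25.3, 23.3 and 24.7 RPKM fasted and 16.8, 9.48 and 15.0 RPKM refed (-0.87, adjusted p = 0.110). Neither pair of groups overlapped. The highest log2 change of all transporter peaks, 2.21 with a standard error of 0.60, belonged to an intron 7 peak over a simple repeat 56667 bp from the start, but its fasted libraries held 1, 3 and 5 reads and its refed libraries 11, 9 and 15 reads (adjusted p = 0.0941). Of the 18 peaks, 4 were higher (22.2%) and 4 lower (22.2%) at p under 0.05 before adjustment, against 8.91% and 5.64% of all peaks. The median log2 change was -0.12. These peaks are neighbours, and no test of the gene as a whole was made.

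**Figure D1:**
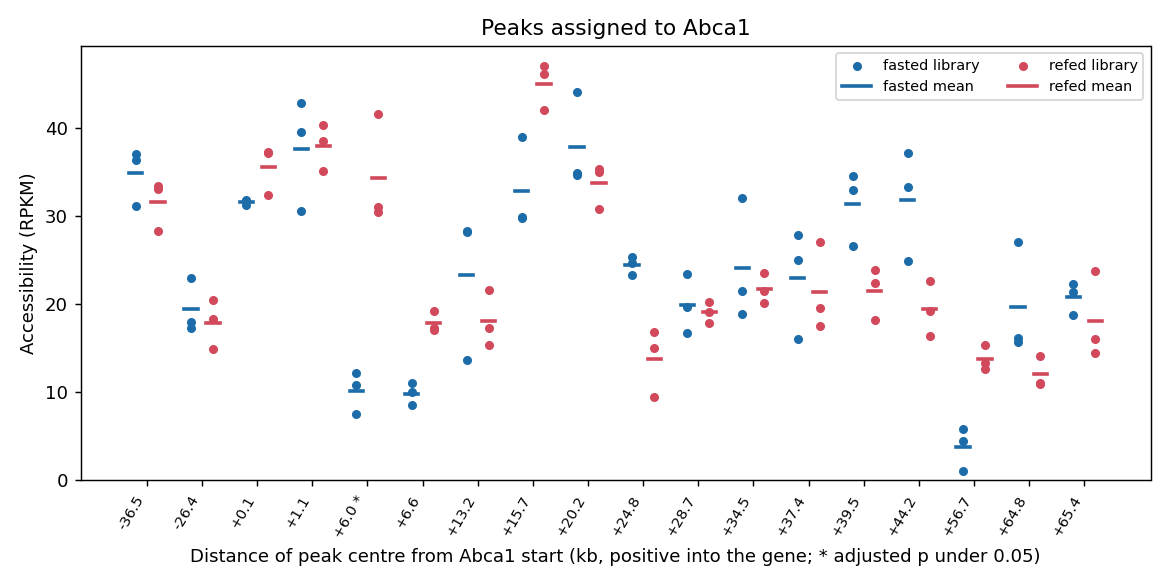
Accessibility in RPKM at the 18 peaks assigned to Abca1, in order of the distance of the peak centre from the gene start in kilobases; points are libraries (3 fasted, 3 refed) and bars are group means. The peak at +6.0 kb, marked with an asterisk, goes from a mean of 10.1 to 34.3 RPKM, while the start peak at +0.1 kb stays between 31.3 and 37.2 RPKM.

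The Slc22a7 peak that rose lies at chr17:46599103-46599651, 23951 bp before the Slc22a7 start and inside intron 13 of 14 of Ttbk1, so its assignment rests on the nearest start alone. It had 21.0, 14.2 and 19.2 RPKM in fasted and 33.6, 36.0 and 39.3 RPKM in refed libraries, with no overlap. The means were 18.1 ± 3.53 and 36.3 ± 2.88 RPKM (SD, n = 3), a log2 change of 1.02 with a standard error of 0.18 (limma, adjusted p = 0.0206). Without fasted 4, refed 7 or refed 8 the adjusted p was 0.0546, 0.0634 or 0.113. The Slc22a7 start peak had 40.5, 37.2 and 23.5 RPKM fasted and 24.7, 30.6 and 31.4 RPKM refed, which overlap (log2 change -0.19, adjusted p = 0.738). Over its 8 peaks the median log2 change was 0.39.

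Slc22a5 lies beside Slc22a21 and Slc22a4, which encode further carriers of carnitine and, for Slc22a4, of ergothioneine. The peak that was lower in refed liver is intergenic, at chr11:53724319-53724983 and 19446 bp before the Slc22a5 start. It had 23.3, 33.8 and 27.6 RPKM in fasted and 11.5, 10.2 and 14.1 RPKM in refed libraries, so that all refed values lay below all fasted ones. The means were 28.2 ± 5.29 and 12.0 ± 2.0 RPKM (SD, n = 3), a log2 change of -1.23 with a standard error of 0.23 (limma, adjusted p = 0.025). Leaving out fasted 3, fasted 4, refed 7 or refed 8 gave an adjusted p of 0.0721, 0.106, 0.0634 or 0.0579. At the Slc22a5 start accessibility was among the highest of all transporter genes, with 74.8, 86.6 and 76.7 RPKM fasted and 68.9, 75.0 and 67.0 RPKM refed (log2 change -0.17 with a standard error of 0.08, adjusted p = 0.362). Over the whole cluster, chr11:53704776-53851140, 16 peaks were assigned to the 3 genes and their median log2 change was -0.36. At an unadjusted p under 0.05, 4 of the 16 (25.0%) were lower and 0 higher, against 5.64% and 8.91% of all peaks. Of these 4, 1 is the called Slc22a5 peak and 3 belong to Slc22a4, with 0 at Slc22a21. In 5 of the 16 (31.25%), the called peak among them, all refed values were below the fasted ones, against 8.57% of all peaks. These peaks are neighbours, and no test of the cluster was made. A peak in intron 3 of 9 of Slc22a4, 23651 bp from its start, had 27.0, 35.4 and 28.3 RPKM fasted and 19.3, 16.3 and 19.4 RPKM refed (-0.72, adjusted p = 0.0754). The list of carnitine and zwitterion carriers, which adds Slc22a16, held 22 peaks with 0 higher and 1 lower by limma (0.427% of all peaks were lower), 0 higher and 5 lower (22.7%) at p under 0.05 before adjustment, and a median of -0.16. It shares 16 of its peaks with the cluster.

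Abcc3 encodes MRP3, which returns glucuronides and bile acids from hepatocytes to blood. Its changed peak, at chr11:94250327-94250707 in intron 1 of 30 and 3773 bp past the start, had 44.9, 34.4 and 31.5 RPKM in fasted and 11.3, 22.7 and 15.1 RPKM in refed libraries. No refed value reached the lowest fasted one. The means were 36.9 ± 7.08 and 16.4 ± 5.79 RPKM (SD, n = 3), a log2 change of -1.21 with a standard error of 0.24 (limma, adjusted p = 0.0302). Leaving out fasted 1, fasted 4, refed 5 or refed 8 gave an adjusted p of 0.0666, 0.0738, 0.0541 or 0.0968. The Abcc3 start peak had 34.7, 34.5 and 28.8 RPKM fasted and 25.2, 30.8 and 29.8 RPKM refed, with overlap (log2 change -0.19, adjusted p = 0.620). The 5 basolateral multidrug resistance proteins, Abcc1 and Abcc3 to Abcc6, together had 27 peaks with 0 higher and 1 lower by limma (0.427% of all peaks were lower). At p under 0.05 before adjustment 2 were higher (7.41%) and 3 lower (11.1%), against 8.91% and 5.64% of all peaks.

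The authors' deposited table lists 3314 peaks, 4.47% of all, and among them are 17 transporter peaks, 4.35% of the members, 10 higher and 7 lower after refeeding. The direction in limma was the same for all 17, and all 4 peaks called by limma are in it. Both tests used the same libraries, so this agreement is not independent. Of the other 13, Slco4c1, an organic anion carrier of the kidney, had a peak 11794 bp before its start with 9.18, 9.61 and 8.38 RPKM fasted and 27.9, 13.7 and 27.1 RPKM refed (log2 change 1.27, limma adjusted p = 0.0687). Slc22a22, a prostaglandin carrier described in mouse kidney, had an intron 2 peak with 37.3, 29.2 and 24.5 RPKM fasted and 13.4, 6.09 and 18.6 RPKM refed (-1.38, adjusted p = 0.0698). An intergenic peak 50626 bp before Slc22a16, a carnitine carrier, had 24.4, 19.8 and 21.0 RPKM fasted and 8.55, 13.5 and 9.02 RPKM refed (-1.09, adjusted p = 0.0706). The groups did not overlap at any of these 3 peaks, which the authors' test had picked from the same libraries. Intron 19 of Abcc6, which encodes a transporter needed for ATP release from hepatocytes, held a peak with 10.8, 14.0 and 6.41 RPKM fasted and 20.2, 19.7 and 26.8 RPKM refed (1.15, adjusted p = 0.0956). Intron 2 of Abca3, a lipid transporter known from lung surfactant, held one with 11.1, 9.67 and 10.6 RPKM fasted and 16.3, 23.0 and 20.3 RPKM refed (0.91, adjusted p = 0.114). Peaks of Slco6d1 (log2 changes 1.40 and 1.04), Abcc12 (0.82), Slc22a23 (1.09) and Slc22a15 (-0.53), with those of Slc22a4 and Abca1 above, make up the rest. Reads recovered from the RPKM steps gave 13 calls by edgeR among the 342 transporter peaks that passed its filter on low counts (8 higher and 5 lower, 3.80%, against 4.01% of all). Each of them is in the authors' deposited table, which rests on the same reads. DESeq2 gave 7 of 314 (2 higher and 5 lower, 2.23%, against 1.66% of all). By each of these tests the share of transporter peaks stood near that of all peaks.

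**Figure D2:**
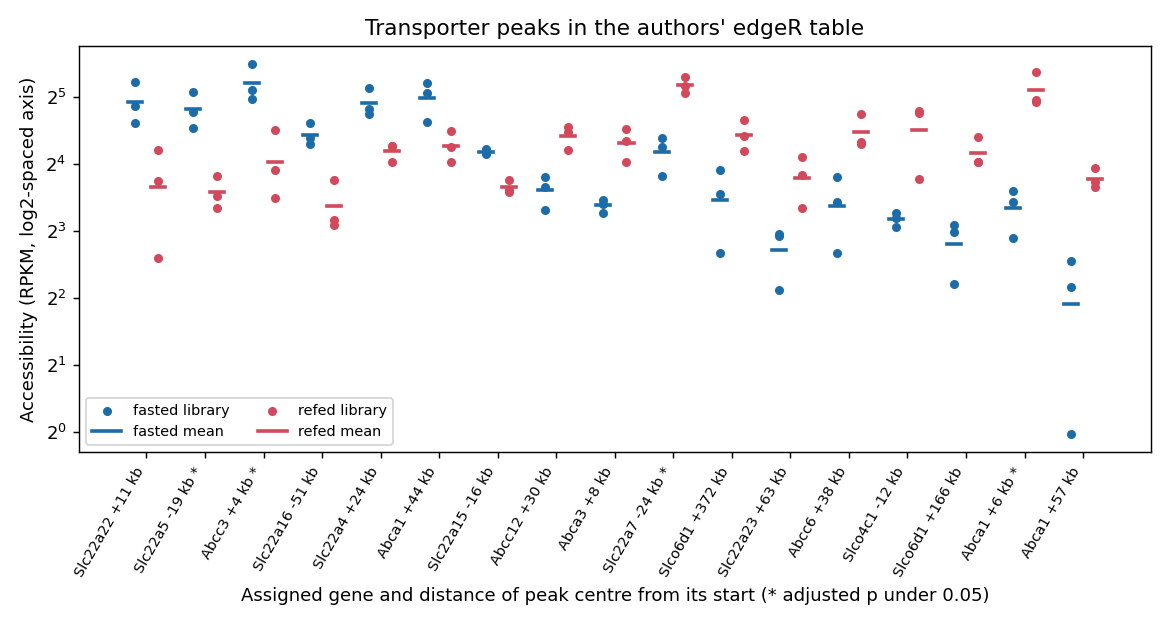
Accessibility in RPKM, on a log2-spaced axis, at the 17 transporter peaks listed in the authors' deposited table; points are libraries (3 fasted, 3 refed), bars are group means and peaks are ordered by log2 change. Fasted and refed points do not overlap at any of these peaks, where they do not overlap at 19.0% of all peaks. The authors' test picked these peaks from the same libraries, so the separation follows largely from that choice. Asterisks mark the 4 with a limma adjusted p under 0.05.

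Peaks at gene starts were as a group higher, deeper and less changed than those farther away. The 59 transporter peaks within 1 kb of a start, of 53 genes, had a median of 30.5 RPKM and a median absolute log2 change of 0.13, against 15.7 RPKM and 0.29 at the 332 peaks farther away; over all peaks the values were 35.2 RPKM and 0.10 near starts and 14.5 RPKM and 0.28 beyond. Transporter start peaks also held more reads, a median of 99.5 a library against 25.3 beyond 1 kb, and the part of depth in their smaller changes was not tested. By limma 0 of the 59 passed (0 by edgeR and 0 by DESeq2), where 0.487% of all peaks near starts passed; at an unadjusted p under 0.05 there were 2 higher and 1 lower, 5.08% against 6.34% of all peaks near starts. Of the 332 peaks beyond 1 kb, 4 passed, which is 1.20% against 1.41% of all such peaks. The start peak of Abcb1b, which encodes a P-glycoprotein drug pump, had 28.0, 20.7 and 19.7 RPKM fasted and 33.6, 25.6 and 35.9 RPKM refed, with overlap (log2 change 0.48, adjusted p = 0.256). The Slco1a4 start peak had 16.6, 13.1 and 8.43 RPKM fasted and 2.75, 4.73 and 10.6 RPKM refed, also with overlap and on only 3 to 21 reads (-1.24, adjusted p = 0.269).

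**Figure D3:**
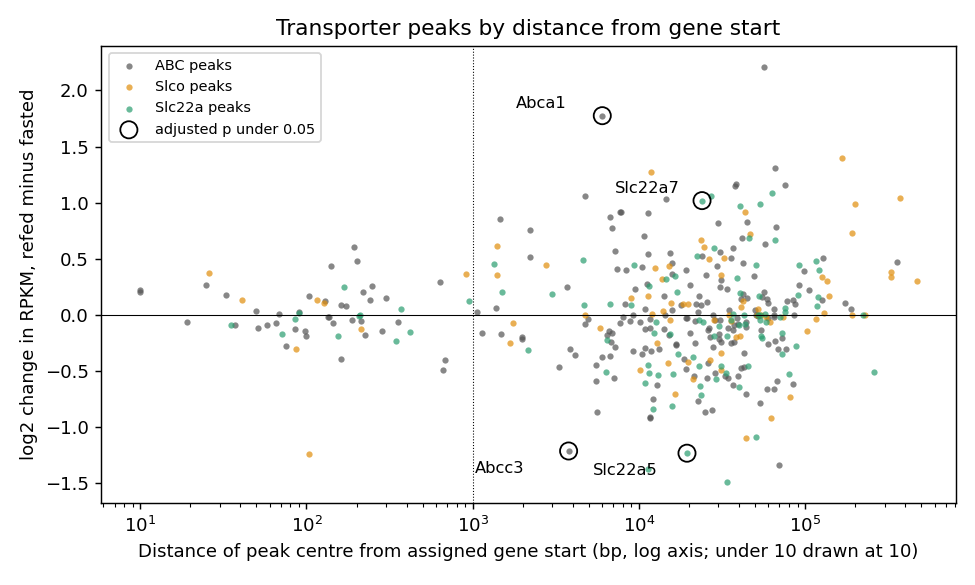
The log2 change in RPKM, refed minus fasted, of each of the 391 transporter peaks against the distance of its centre from the assigned gene start in bp on a log axis; colours are the 3 gene groups, the dotted line is 1 kb and circles mark a limma adjusted p under 0.05. All 4 circled peaks lie beyond 1 kb, and peaks within 1 kb have a median absolute change of 0.13.

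Among 56 genes followed by name, 47 had a start peak, with means over the 6 libraries from 9.38 to 75.9 RPKM. The highest was that of Abcb9, the lysosomal peptide transporter, at 75.9 RPKM, then Slc22a5 at 74.8 RPKM, Abcb8 of the mitochondrion at 64.0 RPKM and Abcf2, an ABC protein without a transport function, at 59.8 RPKM. The lowest were Slco1a4 at 9.38 RPKM, Abcg2, a canalicular exporter of drugs and urate, at 10.7 RPKM, Abcg3 at 11.5 RPKM and Slco1b2, the uptake carrier of bile acids and statins, at 12.9 RPKM. The start was not the strongest peak of every family: in Abcg it was an intron 1 peak of Abcg2 at 51.6 RPKM, in Abcc an intron 3 peak of Abcc4 at 50.1 RPKM and in Slco a peak 4709 bp before Slco4a1 at 37.8 RPKM.

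**Figure D4:**
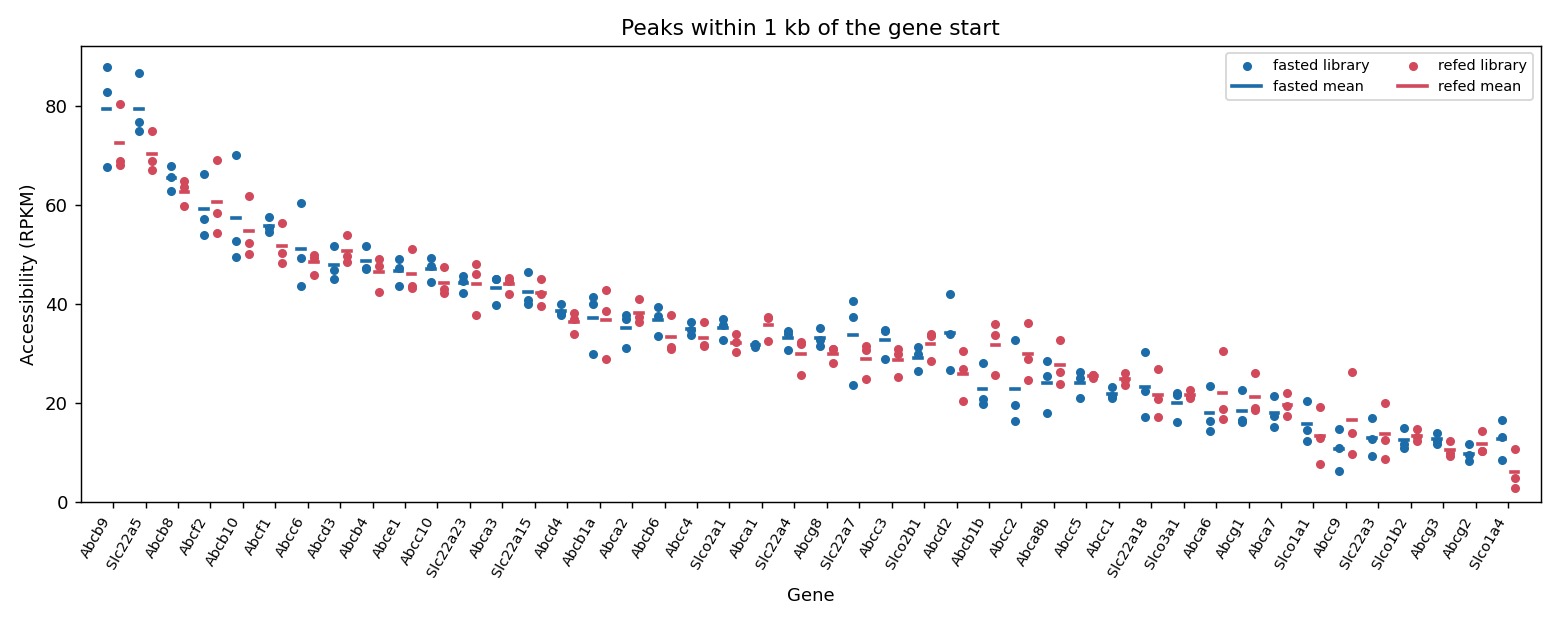
Accessibility in RPKM at the peak nearest to the start, within 1 kb, for 44 of the 47 followed genes that have one, ordered by the mean of all libraries; points are libraries (3 fasted, 3 refed) and bars are group means. Means fall from 75.9 RPKM at Abcb9 to 9.38 RPKM at Slco1a4, and none of these peaks passed the limma threshold.

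Accessibility at starts went with CG content. RefSeq windows were available for 64 of the 82 genes, and the first listed window of each was used. Their median of 6 CG dinucleotides equals that of all windows, which hold every listed start. For the 38 of these genes with a start peak the median was 13 (0 to 35), and for the 26 without one it was 2.5 (0 to 21). With 0 to 3 CG dinucleotides there were 7 start peaks with a median of 14.4 RPKM, and 16 genes had no start peak. With 10 or more there were 23 start peaks with a median of 42.3 RPKM, and 2 genes had none, Abca4 and Slco4a1. Abcb1a, another P-glycoprotein gene, had 36.8 RPKM with 0 CG dinucleotides, and Slc22a18 had 22.4 RPKM, also with 0. Over the 38 genes Spearman's rho was 0.67 and Pearson's r 0.61, given as a description since the genes share libraries and the assay itself can favour some base compositions.

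**Figure D5:**
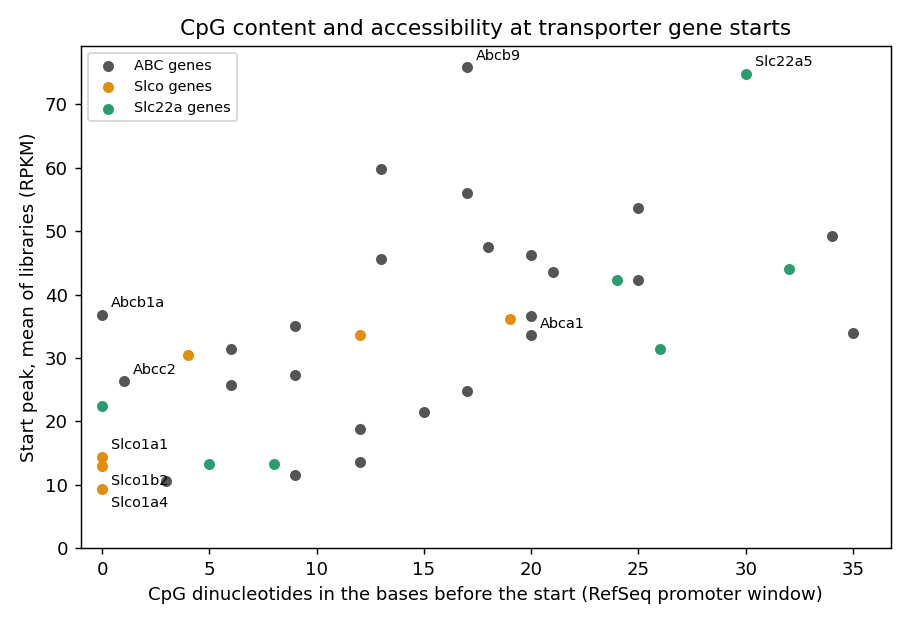
Mean accessibility of the start peak over the 6 libraries, in RPKM, against the number of CG dinucleotides in the 250 bases before the start, for the 38 transporter genes with both; each point is a gene and colours are the 3 gene groups. At 0 CG dinucleotides, Slco1a1, Slco1a4 and Slco1b2 sit below 15 RPKM, Slc22a18 at 22.4 RPKM and Abcb1a at 36.8 RPKM. Slc22a5 has 30 with 74.8 RPKM, Abcb9 17 with 75.9 RPKM and Abcc4 35 with 34.0 RPKM.

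The counts by role are to be read against the shares of all peaks at an unadjusted p under 0.05, 8.91% higher and 5.64% lower, and by limma, 0.802% higher and 0.427% lower. The lipid and sterol exporters had 49 peaks of 6 genes, with 1 higher and 0 lower by limma, 5 higher and 4 lower at p under 0.05 before adjustment and a median log2 change of -0.07. Abca1 alone gave the called peak, 4 of the 5 higher and 4 of the 4 lower ones. The sterol pair Abcg5 and Abcg8 shares a start region, and its 9 peaks, all assigned to Abcg8, held 0 calls by limma and 0 at an unadjusted p under 0.05, with a median of -0.18. Abcb4, which flips phosphatidylcholine into bile, had 12 peaks from -0.49 to 0.83. The 6 canalicular exporters had 55 peaks with 0 calls by limma and edgeR and 4 higher and 1 lower at p under 0.05 before adjustment, and the joint Abcb1 and Abcb4 cluster had 27 peaks with a median of 0.00. Abcc2, the exporter of bilirubin conjugates, ranged from -0.86 to 1.06 over 8 peaks.

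The 4 hepatocyte uptake carriers Slco1a1, Slco1a4, Slco1b2 and Slco2b1 had 29 peaks and 0 calls by limma and edgeR. At an unadjusted p under 0.05, 1 was higher (3.45%) and 6 lower (20.7%), against 8.91% and 5.64% of all peaks, and the median log2 change was -0.12. Slco1a4, a carrier of bile acids and steroid conjugates, accounted for 3 of the 6 with a median of -0.40 over 11 peaks, and Slco1b2 for 2, while the 6 peaks of Slco1a1 had a median of 0.34 and none at that p. The other 10 Slco genes had 45 peaks with 5 higher (11.1%) and 0 lower at p under 0.05 before adjustment, near the 8.91% higher of all peaks, 0 by limma, and a median of 0.13. In 8 of the 45 (17.8%) all refed values were above the fasted ones, against 10.5% of all peaks. A median of 13.5 RPKM made these among the weaker peaks. The organic anion carriers of Slc22a had 36 peaks of 12 genes, with the Slc22a7 call, 2 higher and 4 lower at p under 0.05 before adjustment and a median of -0.04. The remaining Slc22a genes had 31 peaks and 0 calls by limma, with 3 higher and 3 lower at that p; the 3 lower ones belong to Slc22a15 and the 3 higher ones to Slc22a23, which had 17 peaks.

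Abcd2, a peroxisomal fatty acid importer, had 14 peaks with 0 calls by limma and edgeR and 0 higher and 1 lower at p under 0.05 before adjustment; their median log2 change was -0.31 and their range -0.92 to 0.56. Abcd3, which imports branched-chain fatty acids and bile acid precursors into peroxisomes, had 13 peaks with 0 calls by limma and edgeR, 0 at an unadjusted p under 0.05 and a median of -0.01. Abce1, which splits ribosomes, and Abcf1 and Abcf2, which act in translation, had 4 peaks with 0 calls and 0 at that p, with log2 changes of -0.11 to 0.25. The Abca5 to Abca9 cluster had 19 peaks with 0 calls and 2 higher at an unadjusted p under 0.05, both of them at Abca8b, whose 8 peaks had a median of 0.38. The other Abca genes had 19 peaks with 0 calls by limma and 3 higher at that p, and the potassium channel subunits Abcc8 and Abcc9 had 3 peaks with 0 calls and 1 lower.

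For comparison, 21 further genes of hepatic solute transport were followed, and 19 of them had 133 peaks. By limma 1 was higher, at Slc16a1, the monocarboxylate carrier MCT1 (6.12 ± 1.64 to 20.6 ± 3.94 RPKM, log2 change 1.77, adjusted p = 0.0267), and 1 lower, at its relative Slc16a7 (30.8 ± 6.69 to 13.5 ± 0.618 RPKM, -1.18, adjusted p = 0.0199; SD, n = 3). Together these 2 are 1.5% of the 133. Of 15 transcription factors known to act on transporter genes, all with peaks and 134 in total, a peak in intron 1 of Rxra, which encodes the partner of LXR and PXR, was lower in refed liver (48.6 ± 2.40 to 31.5 ± 4.60 RPKM, -0.64, adjusted p = 0.0357), and 0 were higher. At an unadjusted p under 0.05, 12 of the 134 were higher (8.96%) and 18 lower (13.4%), against 8.91% and 5.64% of all peaks.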

How the data were processed

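ATAC-seq libraries of mouse liver formed 2 groups by their labelled treatment, 3 fasted and 3 refed. The submitters' processing notes name the mm9 build and HOMER, MACS2, Bowtie2, SAMtools, FastQC, cutadapt and DESeq2, with no roles, versions or settings; any shift of reads for the transposase is not given in the sources used here. The deposited files' headers show unique reads without duplicates over 1 set of peaks, annotated by the nearest gene start. The deposited table holds RPKM values per library and their log2; the RPKM divide by reads in the listed peaks, so libraries cannot differ in their overall share of reads within peaks. The authors gave a peak without reads the value of 0.9 reads, as the values themselves show, and this makes changes of low peaks smaller. The authors' deposited edgeR table gives read counts, a log2 fold change, a p-value and an FDR for each listed peak.

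The RPKM are not counts, so the main test was limma 3.58.1 in R 4.3.3 (lmFit, eBayes with an intensity trend) on log2 RPKM of all 74076 peaks, refed minus fasted, with no filter, pseudocount or covariate, and Benjamini-Hochberg adjustment over all peaks at 0.05. The RPKM steps gave whole reads (tolerance 0.01 reads), or the 0.9 reads that stand for none, for 100% of values, and the reads equalled the read counts of the authors' table at all 3314 peaks listed there. On them edgeR 4.0.16 (the quasi-likelihood test with TMM; filterByExpr left 61074 peaks) and DESeq2 1.42.0 (no adjusted p for 18693 peaks) were alternatives. The scripts were tested on simulated data.

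The members and lists were chosen with earlier results of these data known. Named were peaks called by limma, those in the authors' deposited table, start peaks of 56 listed genes and the strongest peak of each family; further peaks of Abca1 and of the marker and pathway lists were named after their values were seen. Some genes of these families are not reported here and remain in every count. The number of libraries, 3 a group, and the reads per peak limit the precision.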

Additional observations from a re-analysis of the deposited data

How the results depend on the processing

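No paired analysis was possible because the fasted and refed libraries share no replicate number. Of the 23 single peaks followed through 15 alternatives, which gave 340 values, 0 changed direction. Most of these peaks were picked for a difference in the same libraries, so a reversal was unlikely from the start. Of the values 286 kept their side of the threshold, most of them at peaks not called, 35 passed it newly and 19 lost it. All 19 losses were at the 4 called peaks. Of 15 alternatives each, Abca1 lost 2, Slc22a7 5, and Slc22a5 and Abcc3 6 each. The Abca1 first-intron call was lost only with quantile normalization (adjusted p = 0.0547) and without the intensity trend (0.0728). Under these settings the other 3 calls were lost too, and 0 transporter peaks were higher and 0 lower by limma, while 67 and 62 had an unadjusted p under 0.05; the cause was not tested. Over all peaks quantile normalization left 71 higher and 23 lower, and the fit without the trend 0 and 0. Median centring gave 3 higher and 5 lower transporter peaks, and 886 higher and 607 lower over all peaks. edgeR gave 8 higher and 5 lower transporter peaks with TMM, with RLE and without a filter, and over all peaks 1573, 1574 and 1537 higher and 876, 886 and 894 lower. DESeq2 gave 5 lower transporter peaks. Peaks within 2 kb of a start held 0 higher and 0 lower calls, since all 4 lie farther away. Leaving out 1 library at a time gave 1 to 2 higher transporter peaks, with 1 without fasted 4 or refed 8, and 0 to 1 lower ones, with 0 without fasted 4 or refed 8. Over all peaks it gave 77 to 970 higher and 48 to 211 lower: without fasted 1, 3 and 4 the counts were 970, 664 and 181 higher and 205, 211 and 48 lower, and without refed 5, 7 and 8 they were 233, 174 and 77 higher and 206, 148 and 73 lower. No scaling moved the median of all peaks by over 0.1 on the log2 scale. Of the transporter peaks, 55 averaged under 10 reads a library, where only large changes could be seen at this depth.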

Other observations

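The assignment of peaks to transporter genes by the nearest start leaves some shared regions. Of the 391 peaks 246 were annotated to a transcript, that is to its body, its promoter or its end region. For 34 of these the transcript belongs to another gene, in 11 cases another transporter gene. Some starts lie beside a neighbouring gene, so that a start peak cannot be given to a single gene. The start of Abcg8 lies beside Abcg5 and that of Abce1 beside Anapc10. The start peak of Abcb6 was annotated to the end of an Atg9a transcript. RefSeq lists 9 genes of the same naming pattern that were assigned no peak, namely Abca12, Abca15, Abca17, Abcf3, Abcg5, Slc22a2, Slc22a13, Slc22a13b and Slco1a5. Peaks over repeats made up 27.4% of the transporter peaks and 26.5% of all peaks. Of the 82 genes 21 had a single peak, and 29 had none within 1 kb of the start. Beyond 100 kb from a start there were 27 transporter peaks, of which 24 had a log2 change above 0, as had 9895 of all 14235 peaks at that distance, with medians of 0.22 and 0.08. An unadjusted p under 0.05 was reached by 3 higher (11.1%) and 0 lower ones, against 12.2% and 3.32% of all peaks at that distance, and 0 passed limma.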
